A study of Homo sapiens with 60 samples.

Results

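Ribosome biogenesis and transcription by RNA polymerase I were followed through 41 nucleolar genes, which were listed by name and function. All 41 were found in both deposited expression tables, which hold 19712 genes each. By role, 6 encode RNA polymerase I or its initiation factors, 3 the core proteins of box C/D snoRNPs, 3 those of box H/ACA snoRNPs, 11 act on the small ribosomal subunit, 11 on the large subunit, and 7 are nucleolar proteins with several tasks. Ribosomes are assembled in the nucleolus, where RNA polymerase I transcribes a long precursor of the ribosomal RNAs. Small nucleolar ribonucleoproteins (snoRNPs) then modify the precursor at sites chosen by their guide RNA, and large processing complexes fold and cut it while ribosomal proteins join. Growth factor signalling through receptors such as EGFR is known to raise this output in dividing cells.

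The lung adenocarcinoma cell lines were HCC2935, HCC827, PC9 and H1975, all EGFR-mutant, and RNA of these 4 was sequenced in 5 arms with 3 biological replicates each, which gave 60 libraries. Osimertinib inhibits mutant EGFR, and every treated arm received 500 nM of it. Control cells were cultured without drug for 21 days and then given the vehicle DMSO for 24 h. Acute cells had the same 21 drug-free days, followed by osimertinib for 24 h. Drug-tolerant persister cells (DTPs) were those still present after 21 days in osimertinib. Short washout cells were DTPs kept without drug for another 24 h. Long washout cells were DTPs kept without drug until, by the study's protocol, they grew exponentially again, for 7 days in PC9, 3 days in H1975, 4 days in HCC827 and 10 days in HCC2935, so the length of this arm differed between the lines. Each line is a single established culture, and no drug-free arm matched in time to the washouts is among the groups.

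A library held 17.7 to 49.1 M estimated counts (median 30.1 M), with fewer in HCC827 and HCC2935 (17.7 to 25.6 M) than in PC9 and H1975 (34.7 to 49.1 M). The 41 genes took 0.213% to 0.916% of the counts of a library. All 8 epithelial markers, among them EPCAM and KRT18, were detected in each of the 60 libraries. Of 10 markers of other cell types, the T cell gene CD3E was at 0 in 42 libraries and reached 0.210 CPM at most and PTPRC reached 4.43 CPM, while the fibroblast collagen gene COL1A1 reached 420.4 CPM in H1975 after acute treatment. The macrophage gene CD68 ran from 7.16 to 167 CPM over all libraries, and COL1A2 and PECAM1 reached 143 and 31.5 CPM. The summed level of the 10 ranged from 48.9 to 657 CPM over all libraries. In 12 libraries the profile was nearer to another arm of the same line than to its own, among them long washout replicate 3 of PC9, all DTP libraries of H1975 and all DTP and short washout libraries of HCC827. For PC9 long washout cells the count of called genes, the summed level and the values of some genes are given with and without replicate 3.

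Promoter sequence, 250 bases before to 50 after a transcription start, was available from RefSeq (GRCh38.p14) for 34 of the 41 genes, with 43 starts between them. POLR1E, BOP1, NOLC1, RRS1, RRP12, NOP58 and RRP1B had no entry. Both strands were searched for the E-box CACGTG, the sequence bound by several basic helix-loop-helix factors, and for CCGGAAG, a core sequence of ETS factors. CACGTG reads the same on both strands. The E-box lay in the window of 14 of the 34 genes (41.2%) and in 8.77% of the 27305 genes of the table. In the bases before the start alone it was found for 4 of the 34 genes (11.8%), against 7.73% of all genes, so most of these matches lay at or after the start or across it. The ETS core was found for 12 of the 34 genes (35.3%) and for 12.2% of all genes. The shares are a description of these letters, and binding was not measured. The 6 promoters below belong to genes with an E-box that had the lowest mean log2 fold change after acute osimertinib, and they show where the match sits relative to the start. They are written 5′ to 3′ on the strand of the gene, with the E-box and, in RRP9, the ETS core in capitals.

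LYAR, chr4:4289972-4290271, minus strand: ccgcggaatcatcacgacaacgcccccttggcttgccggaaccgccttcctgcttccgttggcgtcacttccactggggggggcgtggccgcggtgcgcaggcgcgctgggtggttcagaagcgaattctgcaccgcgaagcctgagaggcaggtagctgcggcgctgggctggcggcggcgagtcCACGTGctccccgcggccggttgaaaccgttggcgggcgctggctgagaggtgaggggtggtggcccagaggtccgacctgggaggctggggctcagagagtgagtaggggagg
DDX21, chr10:68956397-68956696, plus strand: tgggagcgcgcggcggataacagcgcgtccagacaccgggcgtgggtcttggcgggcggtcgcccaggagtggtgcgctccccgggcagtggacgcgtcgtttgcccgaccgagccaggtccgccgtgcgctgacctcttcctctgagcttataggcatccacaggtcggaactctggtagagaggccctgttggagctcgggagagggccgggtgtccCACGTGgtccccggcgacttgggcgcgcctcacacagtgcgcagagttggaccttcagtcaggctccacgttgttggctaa
MRTO4, chr1:19251555-19251854, plus strand: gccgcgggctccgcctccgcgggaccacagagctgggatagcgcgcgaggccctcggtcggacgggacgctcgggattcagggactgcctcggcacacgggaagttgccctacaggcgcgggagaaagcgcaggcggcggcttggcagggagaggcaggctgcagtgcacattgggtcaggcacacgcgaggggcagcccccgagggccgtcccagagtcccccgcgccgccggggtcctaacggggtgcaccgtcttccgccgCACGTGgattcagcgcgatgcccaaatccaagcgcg
RRP9, chr3:51941855-51942154, minus strand: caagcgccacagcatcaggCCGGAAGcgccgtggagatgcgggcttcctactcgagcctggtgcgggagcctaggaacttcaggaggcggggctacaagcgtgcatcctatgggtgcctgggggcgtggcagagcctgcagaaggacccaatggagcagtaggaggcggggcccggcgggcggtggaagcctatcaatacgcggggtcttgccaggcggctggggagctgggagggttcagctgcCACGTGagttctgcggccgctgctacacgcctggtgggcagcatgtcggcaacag
UTP20, chr12:101279855-101280154, plus strand: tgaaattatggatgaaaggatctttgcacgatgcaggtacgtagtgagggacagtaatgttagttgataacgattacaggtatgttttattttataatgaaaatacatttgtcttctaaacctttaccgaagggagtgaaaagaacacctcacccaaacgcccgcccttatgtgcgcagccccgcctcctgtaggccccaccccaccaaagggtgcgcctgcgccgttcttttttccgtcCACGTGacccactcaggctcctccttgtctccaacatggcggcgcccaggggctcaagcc
NOP2, chr12:6568242-6568541, minus strand: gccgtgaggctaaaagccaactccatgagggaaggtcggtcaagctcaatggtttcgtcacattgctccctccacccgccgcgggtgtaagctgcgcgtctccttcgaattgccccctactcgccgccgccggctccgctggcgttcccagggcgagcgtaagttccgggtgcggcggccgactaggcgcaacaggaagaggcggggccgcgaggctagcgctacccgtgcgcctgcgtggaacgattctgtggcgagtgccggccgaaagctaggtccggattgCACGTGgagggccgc

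Counted from the first transcribed base as +1, the E-box began at -64 in LYAR, -31 in DDX21, -10 in UTP20 and -5 in RRP9, and at 15 in MRTO4 and 36 in NOP2. The ETS core of RRP9 began at -231. LYAR and DDX21 each have a further start in the table, whose window held no E-box. PA2G4 and NOP56, with mean log2 fold changes of -1.44 and -1.42 after acute osimertinib, had no E-box. PES1, with a mean of -0.59, had an E-box. Any link between the E-box and the change was not tested.

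Without drug, the 41 genes spanned a wide range of levels, and HCC2935 held less of most of them than the other lines. On the TPM scale, which corrects for transcript length, the highest was NPM1, a histone and ribosome chaperone, with 3422 ± 173 TPM in PC9, 2063 ± 246 in HCC827, 1977 ± 159 in H1975 and 662 ± 23.9 in HCC2935 (mean ± SD, n = 3). Next came NCL, nucleolin, at 1099 ± 98.5, 986 ± 168, 956 ± 52.0 and 605 ± 23.4 TPM in the same order. The box C/D proteins followed in PC9, with NOP56 at 386 ± 20.7 TPM and FBL, the fibrillarin methyltransferase, at 345 ± 13.5 TPM. At the lower end stood UTP20, a scaffold of the small subunit processome, with 14.6 ± 1.31 TPM in PC9 and 10.4 ± 0.394 TPM in HCC2935, and POLR1C, a subunit shared by RNA polymerases I and III, with 8.20 ± 1.06 TPM in PC9. The named pseudogenes of NPM1 number 45, so its reads may be split with near-identical copies. By edgeR's joint test of the lines over 12 DMSO libraries, 40 of 41 genes differed between lines, POLR1C being the exception, against 91.2% of all genes tested. HCC2935 was the lowest line for 36 of the 41 genes, and the median spread between the lowest and the highest line was 2.76-fold. The library-relative scale used here and below cannot show whether a cell holds less total RNA, and in bulk samples fewer cells of a type and less RNA per cell cannot be told apart.

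After 24 h of osimertinib most of the 41 genes were lower in every line. Compared with DMSO, edgeR's quasi-likelihood test at an adjusted p under 0.05 called lower 40 in PC9, 34 in HCC827, 41 in H1975 and 37 in HCC2935, out of 41. None was called higher in any line, none was higher at an unadjusted p under 0.05, and DESeq2 and limma called none higher either. Of all genes tested, 34.1% were lower and 34.4% higher in PC9, 22.1% and 20.2% in HCC827, 23.7% and 21.2% in H1975, and 25.1% and 22% in HCC2935. The median log2 fold change of the 41 genes was -1.50 in PC9, -0.64 in HCC827, -1.05 in H1975 and -0.88 in HCC2935, while the median of all genes stayed between -0.01 and 0.03 in every comparison made here. Log2 fold changes of single genes are given ± SE, with the Benjamini-Hochberg adjusted p of edgeR, from the 6 libraries of the comparison. The call was shared by all 4 lines for 32 genes and by 3 lines for 7. UBTF was called in PC9 and H1975 only, and POLR1C in H1975 only. The 3 highest values were POLR1C (-0.35), UBTF (-0.40) and BOP1 (-0.50) in PC9, UBTF (0.05), POLR1C (0.01) and RRP12 (-0.06) in HCC827, UBTF (-0.40), BOP1 (-0.58) and GNL3 (-0.63) in H1975 and BOP1 (0.11), UBTF (0.02) and POLR1C (-0.06) in HCC2935. The 3 lowest were LYAR (-3.20), NOP56 (-2.40) and DDX21 (-2.21) in PC9, LYAR (-1.58), PA2G4 (-1.10) and NOLC1 (-1.06) in HCC827, RRS1 (-2.00), LYAR (-1.85) and PA2G4 (-1.71) in H1975 and LYAR (-1.50), RRS1 (-1.49) and DDX21 (-1.47) in HCC2935. Summed over the 41 genes, the normalised level in PC9 was 10170, 9174 and 10293 CPM under DMSO and 4471, 4530 and 4705 CPM after acute treatment, or 46.2% of the control mean. The share was 63.9% in HCC827, 49.5% in H1975 and 57.9% in HCC2935. Without NCL and NPM1, which carry much of the sum, it was 38.9% in PC9, 63.6% in HCC827, 49.3% in H1975 and 57.4% in HCC2935. The markers of other cells moved in the same comparison, and their sum went from 157 to 249 CPM under DMSO to 390 to 657 CPM after drug in H1975, from 95.8 to 139 CPM to 167 to 201 CPM in HCC827 and from 69.2 to 84.2 CPM to 94.1 to 109 CPM in PC9, without overlap. In HCC2935 the groups overlapped, at 129 to 165 CPM and 115 to 149.6 CPM. Of the 8 epithelial markers 7 were higher and 1 lower in PC9, 3 and 0 in H1975, 3 and 2 in HCC827, and 0 and 3 in HCC2935, and their sum in PC9 went from between 11484 and 11937 CPM to between 20484 and 22153 CPM. The part of either marker list in the values of the 41 genes was not tested.

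**Figure D1:**
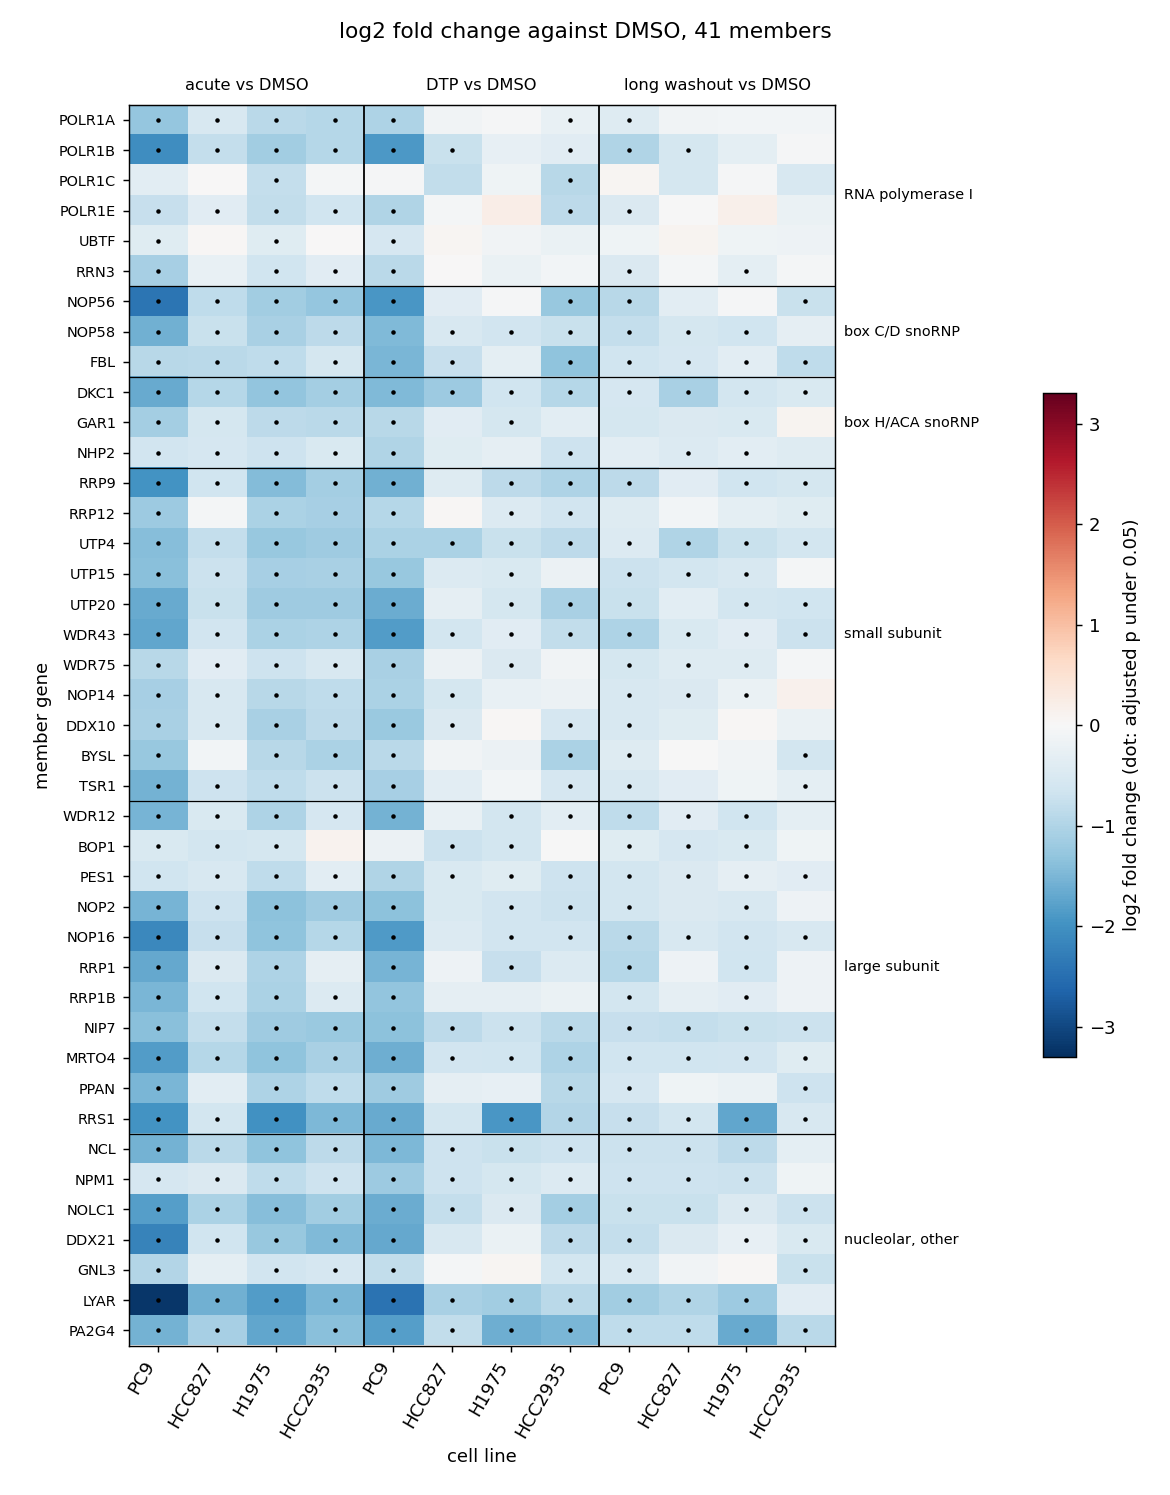
Heat map of the log2 fold change of the 41 genes (rows, grouped by role) against DMSO in the acute, DTP and long washout arms of the 4 lines (columns), with a dot where edgeR gave an adjusted p under 0.05. Dots fill the acute columns but for POLR1C, UBTF, BOP1 and a few others, while the DTP column of PC9 holds 39 dots and that of HCC827 holds 17.

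Among the genes of RNA polymerase I, the catalytic subunits fell in each line, and the promoter factor UBTF fell in PC9 and H1975. POLR1B (chr2:112541915-112577150), which forms the active centre with POLR1A, stood at 124, 103 and 106 CPM in PC9 under DMSO and at 27.9, 26.9 and 27.4 CPM after osimertinib. The groups did not overlap, and the log2 fold change was -2.06 ± 0.09 (adjusted p = 3.89e-07). It was -0.79 ± 0.16 (adjusted p = 0.00358) in HCC827, -1.16 ± 0.18 (adjusted p = 0.00167) in H1975 and -0.95 ± 0.12 (adjusted p = 0.000183) in HCC2935. POLR1A (chr2:86020216-86106155), the largest subunit, went from 184, 234 and 188 to 127, 116 and 96.8 CPM in H1975, again without overlap. Its log2 fold change was -0.90 ± 0.14 (adjusted p = 0.00179) there, -1.27 ± 0.07 (adjusted p = 1.01e-06) in PC9, -0.52 ± 0.17 (adjusted p = 0.0318) in HCC827 and -0.94 ± 0.10 (adjusted p = 5.75e-05) in HCC2935. RRN3 (chr16:15060022-15094317), the factor that couples the polymerase to the promoter, fell in 3 lines, with -1.09 ± 0.07 (adjusted p = 2.30e-06) in PC9, -0.65 ± 0.13 (adjusted p = 0.00586) in H1975 and -0.37 ± 0.10 (adjusted p = 0.0150) in HCC2935. In HCC827 its value of -0.25 ± 0.12 (adjusted p = 0.123) did not pass. UBTF (chr17:44205033-44221626), which binds along the ribosomal DNA repeats, measured 175, 161 and 159 CPM under DMSO and 119.9, 136 and 129.8 CPM after drug in PC9. In HCC2935 it measured 104, 102 and 99.5 CPM under DMSO and 103, 100.3 and 112 CPM after drug. The PC9 groups were apart and those of HCC2935 overlapped, with log2 fold changes of -0.40 ± 0.07 (adjusted p = 0.00089) and 0.02 ± 0.08 (adjusted p = 0.876). In HCC827 UBTF gave 0.05 ± 0.12 (adjusted p = 0.770) and in H1975 -0.40 ± 0.08 (adjusted p = 0.00533). POLR1C, a gene of few counts, gave -0.80 ± 0.23 (adjusted p = 0.0241) in H1975, and its groups overlapped in HCC827, where replicates under DMSO ran from 2.93 to 10.8 CPM. POLR1E, a further subunit, was lower in all 4 lines.

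The snoRNP proteins fell in all 4 lines without exception, 3 of 3 for box C/D and 3 of 3 for box H/ACA. NOP56 (chr20:2652145-2658393), a scaffold of the box C/D particle, stood at 425, 394 and 436 CPM in PC9 under DMSO and at 87.8, 73.9 and 83.4 CPM after acute osimertinib. This left 19.0% of the control level, a log2 fold change of -2.40 ± 0.09 (adjusted p = 1.84e-07). It was -0.85 ± 0.17 (adjusted p = 0.00409) in HCC827, -1.14 ± 0.24 (adjusted p = 0.00674) in H1975 and -1.28 ± 0.10 (adjusted p = 1.09e-05) in HCC2935. FBL (chr19:39834458-39846414), the methyltransferase of the same particle, went in PC9 from 219, 207 and 222 to 123, 117 and 114 CPM. The groups were apart, with -0.91 ± 0.06 (adjusted p = 3.46e-06), and the values were -0.89 ± 0.10 (adjusted p = 0.000148) in HCC827, -0.84 ± 0.10 (adjusted p = 0.000502) in H1975 and -0.58 ± 0.09 (adjusted p = 0.000442) in HCC2935. DKC1 (chrX:154762742-154777689), the pseudouridine synthase of the box H/ACA particle, was the lowest of its role in every line. Its levels in HCC827 were 312, 477 and 323 CPM under DMSO and 204, 171 and 215 CPM after drug. The log2 fold change there was -0.95 ± 0.16 (adjusted p = 0.00177), and it was -1.67 ± 0.08 (adjusted p = 7.44e-07) in PC9, -1.29 ± 0.10 (adjusted p = 0.000101) in H1975 and -1.12 ± 0.10 (adjusted p = 1.88e-05) in HCC2935. NHP2, a small RNA-binding partner of DKC1, had the mildest fall of its role in each line, -0.63 in PC9, -0.56 in HCC827, -0.68 in H1975 and -0.51 in HCC2935. Exons of NHP2 share 27.4% of their bases with RMND5B on the opposite strand, and the counting is not stated to have used strand. The loci of 9 members hold 28 snoRNA genes, of which NOP56 carries 5 and NCL 3.

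Of the 11 small subunit factors, 11 in PC9, 9 in HCC827, 11 in H1975 and 11 in HCC2935 were lower. UTP20 (chr12:101280109-101386616), whose promoter is printed above, measured 125, 106 and 123 CPM in PC9 under DMSO and 37.0, 36.9 and 40.9 CPM after drug. The groups were apart, and the log2 fold change was -1.67 ± 0.09 (adjusted p = 9.04e-07). HCC827 gave -0.74 ± 0.16 (adjusted p = 0.00559), H1975 -1.17 ± 0.16 (adjusted p = 0.00112) and HCC2935 -1.17 ± 0.09 (adjusted p = 7.86e-06). RRP9, which belongs to the U3 snoRNP, had the lowest value of this role in PC9 (-1.98) and H1975 (-1.44). In HCC827 the exceptions were BYSL, a late maturation factor, at -0.10 ± 0.16 (adjusted p = 0.637), and RRP12, an export factor, at -0.06 ± 0.16 (adjusted p = 0.807). Both were lower in the other 3 lines, where RRP12 ranged from -1.20 in PC9 to -1.04 in H1975.

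Of the 11 large subunit factors, 11 in PC9, 10 in HCC827, 11 in H1975 and 9 in HCC2935 were lower. WDR12, BOP1 and PES1 form a single complex required for maturation of the large subunit, and their values were unequal. WDR12 (chr2:202874782-203014798) went from 49.0, 45.5 and 41.4 to 17.1, 12.6 and 18.2 CPM in PC9, a log2 fold change of -1.54 ± 0.14 (adjusted p = 1.49e-05). PES1 (chr22:30576625-30607083) went from 269, 233 and 238 to 150.2, 163 and 167 CPM in the same libraries, -0.67 ± 0.08 (adjusted p = 5.47e-05). Neither gene had overlapping groups, while BOP1 in HCC2935 gave 0.11 ± 0.19 (adjusted p = 0.668) and was not called. In the other lines WDR12 gave -0.51 ± 0.14 (adjusted p = 0.0149) in HCC827, -1.02 ± 0.10 (adjusted p = 0.000256) in H1975 and -0.56 ± 0.16 (adjusted p = 0.0182) in HCC2935. PES1 gave -0.52 ± 0.13 (adjusted p = 0.00988), -0.84 ± 0.14 (adjusted p = 0.00243) and -0.34 ± 0.09 (adjusted p = 0.0143) in the same order. NOP2 (chr12:6556863-6568691), an RNA methyltransferase long used as a proliferation antigen, was at 75.5, 84.1 and 82.1 CPM under DMSO and 33.7, 37.3 and 38.2 CPM after drug in HCC2935. Its log2 fold change was -1.17 ± 0.10 (adjusted p = 1.65e-05) there, -1.52 ± 0.09 (adjusted p = 1.38e-06) in PC9, -0.68 ± 0.19 (adjusted p = 0.0166) in HCC827 and -1.34 ± 0.15 (adjusted p = 0.000411) in H1975. Exon bases of NOP2 coincide for 54.4% with another gene model on the same strand, AC006064.6, and those of PPAN for 56% with PPAN-P2RY11, so reads could be divided between the models. RRS1, an assembly factor of the large subunit, was the lowest of all 41 genes in H1975, at 97.5, 80.1 and 89.1 CPM under DMSO and 21.6, 25.2 and 23.0 CPM after drug. That is -2.00 ± 0.11 (adjusted p = 4.21e-05), without overlap. In HCC2935 it gave -1.49 ± 0.19 (adjusted p = 0.000204). NOP16 gave -2.13 ± 0.09 (adjusted p = 4.08e-07) in PC9, the lowest of this role in that line.

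The 7 nucleolar proteins with several tasks were lower in all lines but for GNL3 in HCC827, at -0.32 ± 0.12 (adjusted p = 0.0663). LYAR (chr4:4267701-4290169), a zinc finger protein that promotes rRNA synthesis, was the lowest of all 41 genes in PC9, HCC827 and HCC2935. In PC9 it stood at 53.1, 46.1 and 54.7 CPM under DMSO and at 5.89, 5.05 and 6.24 CPM after drug, or 10.8% of the control. The log2 fold change was -3.20 ± 0.12 (adjusted p = 2.29e-07) in PC9, -1.58 ± 0.16 (adjusted p = 9.60e-05) in HCC827, -1.85 ± 0.15 (adjusted p = 0.000119) in H1975 and -1.50 ± 0.16 (adjusted p = 6.60e-05) in HCC2935. DDX21, an RNA helicase that links polymerases I and II, gave -2.21 ± 0.11 (adjusted p = 6.48e-07) in PC9 and -1.47 ± 0.09 (adjusted p = 1.96e-06) in HCC2935. PA2G4, the ErbB3-binding protein EBP1, gave -1.71 ± 0.13 (adjusted p = 8.75e-05) in H1975 and -1.10 ± 0.12 (adjusted p = 0.000185) in HCC827, and NOLC1 gave -1.06 ± 0.14 (adjusted p = 0.00047) in HCC827. NCL (chr2:231453531-231483641) was at 1201, 1292 and 1220 CPM under DMSO and 570.3, 505 and 474 CPM after drug in H1975. Its groups were apart, with -1.33 ± 0.10 (adjusted p = 8.68e-05), and the value was -1.57 ± 0.08 (adjusted p = 7.30e-07) in PC9, -0.89 ± 0.12 (adjusted p = 0.000422) in HCC827 and -0.85 ± 0.09 (adjusted p = 4.81e-05) in HCC2935. NPM1 (chr5:171387116-171411137) was at 2656, 2425 and 2619 CPM under DMSO and 1688, 1858 and 1842 CPM after drug in PC9. The groups were apart here too, with -0.56 ± 0.06 (adjusted p = 4.55e-05), and gave -0.48 ± 0.11 (adjusted p = 0.00867) in HCC827, -0.84 ± 0.10 (adjusted p = 0.000559) in H1975 and -0.68 ± 0.10 (adjusted p = 0.000337) in HCC2935.

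**Figure D2:**
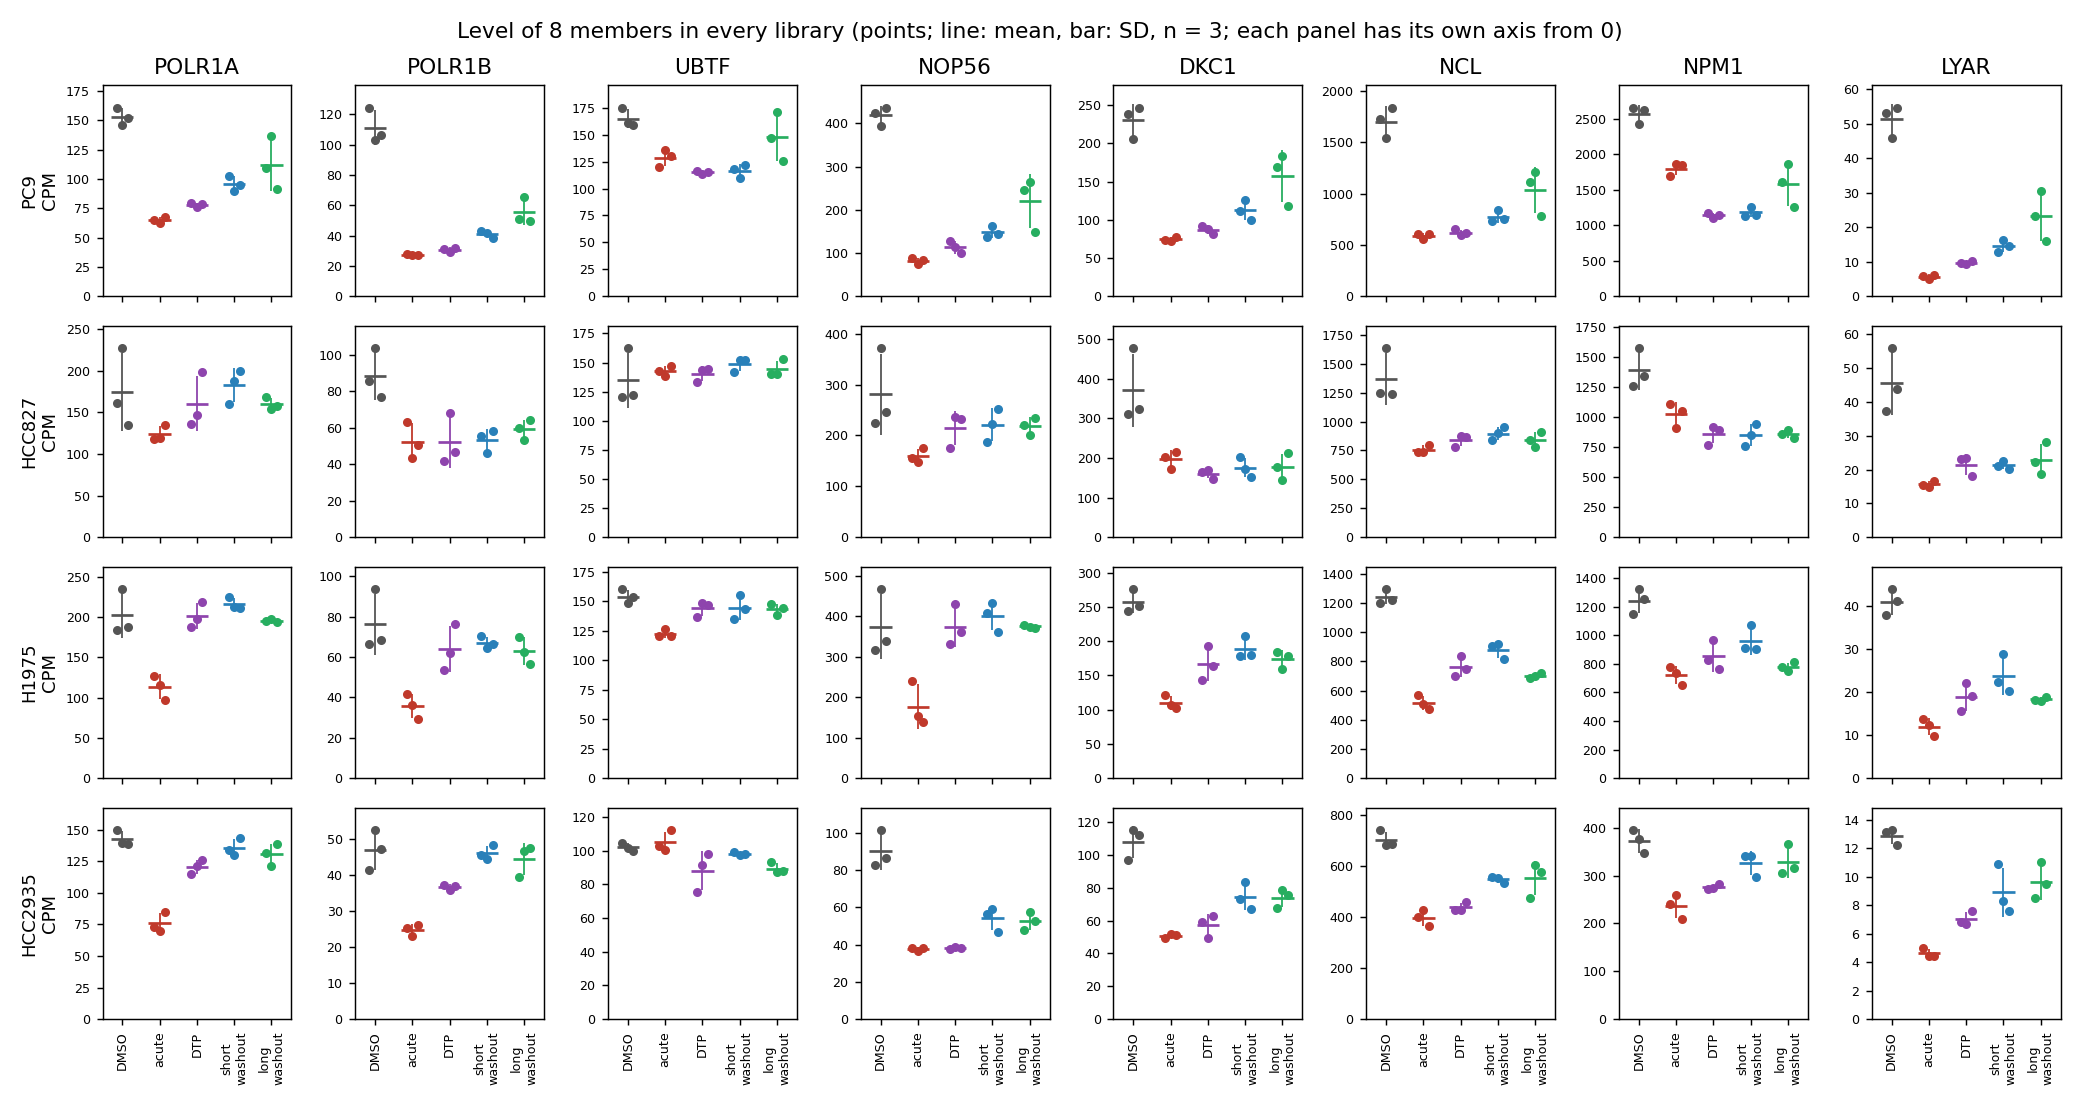
Level in CPM of 8 of the genes (columns) in every library of the 4 lines (rows) by arm, with the mean as a line and the SD as a bar (n = 3), and with an axis from 0 in each panel. LYAR in PC9 shows the deepest acute fall, and UBTF stays near its DMSO level in HCC827 and HCC2935.

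The size of the acute fall differed between lines for 30 of the 41 genes by a joint test of the line-by-treatment terms over 24 libraries, against 40.5% of all genes tested. PC9 had the lowest value for 33 of the 41 genes and HCC827 the highest for 33. The adjusted p was 3.24e-06 for LYAR, 1.59e-05 for RRP1, 0.000111 for DDX21 and 0.000169 for NOP16. RRP1, a large subunit factor, ran from -1.69 in PC9 to -0.29 in HCC2935. Genes without a shown difference included NPM1, NHP2, GAR1, NIP7 and PES1. The count of 30 fell to 12 without replicate 1 of all groups and to 15 without replicate 3.

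After 21 days in the drug part of the group was lower than under DMSO in every line, and the number of genes called differed between the lines. Of the 41 genes, 39 in PC9, 17 in HCC827, 24 in H1975 and 32 in HCC2935 were lower in DTPs than under DMSO. None was called higher by edgeR, by DESeq2 or by limma, and none was higher at an unadjusted p under 0.05. The shares of all genes called lower were 35.9% in PC9, 17.2% in HCC827, 23.4% in H1975 and 27.2% in HCC2935, and the shares called higher were 35.4% in PC9, 19.4% in HCC827, 22.4% in H1975 and 25.3% in HCC2935. The median log2 fold change was -1.29 in PC9, -0.49 in HCC827, -0.48 in H1975 and -0.69 in HCC2935. The calls were common to all 4 lines for 12 genes, namely DKC1, LYAR, MRTO4, NCL, NIP7, NOLC1, NOP58, NPM1, PA2G4, PES1, UTP4 and WDR43. Summed over the 41 genes, the level in DTPs was 41.4% of DMSO in PC9, 66.3% in HCC827, 72.4% in H1975 and 64.1% in HCC2935. In PC9 the median of all genes moved from 0.02 to 0.18 when libraries were scaled by their total alone.

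In PC9 the polymerase genes were low, with POLR1B at 30.9, 28.9 and 32.2 CPM in DTPs (-1.90 ± 0.09, adjusted p = 9.80e-08 against DMSO) and POLR1A at 79.6, 76.0 and 78.5 CPM (-1.01 ± 0.07, adjusted p = 6.05e-07). RRN3 gave -0.90 ± 0.07 (adjusted p = 3.00e-06) and UBTF -0.56 ± 0.06 (adjusted p = 2.69e-05), and POLR1C at -0.05 was the exception. In H1975 edgeR called none of the 6 polymerase genes, none passed at an unadjusted p under 0.05, and DESeq2 and limma called none. POLR1A there read 188, 198 and 219 CPM in DTPs, which overlapped the DMSO libraries, and gave -0.03 ± 0.12 (adjusted p = 0.839). POLR1E gave 0.23 ± 0.10 (adjusted p = 0.0967), and POLR1B, RRN3 and UBTF gave -0.28 ± 0.17 (adjusted p = 0.201), -0.22 ± 0.11 (adjusted p = 0.146) and -0.13 ± 0.10 (adjusted p = 0.307). HCC827 had a single call in this role, POLR1B at -0.75 ± 0.20 (adjusted p = 0.0169), while POLR1A, RRN3 and UBTF gave -0.10 ± 0.21 (adjusted p = 0.735), 0.02 ± 0.15 (adjusted p = 0.926) and 0.08 ± 0.14 (adjusted p = 0.709). In HCC2935 POLR1C fell to 4.13, 4.62 and 4.38 CPM from 7.49, 5.51 and 11.7 CPM, -0.93 ± 0.29 (adjusted p = 0.0221). POLR1A and POLR1B gave -0.26 ± 0.08 (adjusted p = 0.0244) and -0.37 ± 0.11 (adjusted p = 0.0190) in that line, and RRN3 and UBTF gave -0.09 ± 0.10 (adjusted p = 0.472) and -0.22 ± 0.11 (adjusted p = 0.115).

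NOP56 had a spread of 1.89 log2 units between the lines, the widest of the 41 genes. In PC9 DTPs it stood at 129, 113 and 99.2 CPM, -1.92 ± 0.10 (adjusted p = 1.51e-07) against DMSO. In H1975 DTPs it stood at 332, 431 and 361 CPM, overlapping the DMSO libraries at 318, 467 and 339.6 CPM, and gave -0.03 ± 0.16 (adjusted p = 0.896). HCC827 gave -0.37 ± 0.20 (adjusted p = 0.186) and HCC2935 -1.26 ± 0.10 (adjusted p = 1.92e-05), and the test between lines had an adjusted p of 5.23e-06. FBL was low in 3 lines, at -1.50 ± 0.08 (adjusted p = 1.89e-07) in PC9, -0.76 ± 0.16 (adjusted p = 0.00598) in HCC827 and -1.33 ± 0.09 (adjusted p = 8.74e-06) in HCC2935, and gave -0.32 ± 0.12 (adjusted p = 0.0510) in H1975. DKC1 was lower in each line, with -1.44 ± 0.09 (adjusted p = 4.26e-07), -1.19 ± 0.17 (adjusted p = 0.00115), -0.65 ± 0.13 (adjusted p = 0.00321) and -0.93 ± 0.12 (adjusted p = 0.000202) in the order PC9, HCC827, H1975 and HCC2935. In HCC827 this was the lowest value of all 41 genes, followed by LYAR at -1.07 ± 0.18 (adjusted p = 0.00250) and UTP4, a subunit of the early small subunit complex, at -1.03 ± 0.16 (adjusted p = 0.00136).

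In H1975, where many genes were near control, RRS1 and PA2G4 had the lowest values. RRS1 read 97.5, 80.1 and 89.1 CPM under DMSO, 21.6, 25.2 and 23.0 CPM after acute treatment and 20.5, 27.7 and 24.2 CPM in DTPs, -1.92 ± 0.14 (adjusted p = 6.66e-05) against DMSO. PA2G4 read 544, 406 and 513 CPM under DMSO, 147, 157 and 163 CPM after acute treatment and 145, 192 and 157 CPM in DTPs, -1.60 ± 0.16 (adjusted p = 0.000166). For both genes every DTP library was below every control. LYAR came next at -1.15 ± 0.15 (adjusted p = 0.000525), while POLR1E (0.23), GNL3 (0.06) and DDX10 (0.05) had the highest values, none of them called. In HCC2935 PA2G4 was the lowest gene, at -1.51 ± 0.10 (adjusted p = 5.87e-06), and in PC9 LYAR, at -2.43 ± 0.10 (adjusted p = 5.72e-08). The genes next in order were NOP56 and POLR1B in PC9, and FBL and NOP56 in HCC2935. NCL gave -1.49 ± 0.07 (adjusted p = 1.19e-07) in PC9, -0.69 ± 0.14 (adjusted p = 0.00526) in HCC827, -0.73 ± 0.11 (adjusted p = 0.000925) in H1975 and -0.69 ± 0.08 (adjusted p = 0.00012) in HCC2935. It was called in each line. NPM1 gave -1.20 ± 0.05 (adjusted p = 7.59e-08) in PC9, -0.68 ± 0.13 (adjusted p = 0.00412) in HCC827, -0.57 ± 0.12 (adjusted p = 0.00525) in H1975 and -0.45 ± 0.08 (adjusted p = 0.00133) in HCC2935.

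Among the subunit factors, UTP20 gave -1.63 ± 0.08 (adjusted p = 1.44e-07) in PC9, -0.57 ± 0.16 (adjusted p = 0.0180) in H1975 and -1.06 ± 0.09 (adjusted p = 2.28e-05) in HCC2935, and did not pass in HCC827 (-0.29). NOP2 gave -1.35 ± 0.09 (adjusted p = 6.29e-07) in PC9 and -0.64 ± 0.15 (adjusted p = 0.00909) in H1975, WDR12 -1.55 ± 0.10 (adjusted p = 6.38e-07) and -0.60 ± 0.13 (adjusted p = 0.00513), and PES1 -0.99 ± 0.07 (adjusted p = 8.81e-07) and -0.40 ± 0.13 (adjusted p = 0.0349). In HCC827 NOP2 and WDR12 did not pass, at -0.50 ± 0.20 (adjusted p = 0.0795) and -0.25 ± 0.13 (adjusted p = 0.173), and PES1 was lower at -0.50 ± 0.14 (adjusted p = 0.0214). In HCC2935 they gave -0.71 ± 0.09 (adjusted p = 0.000226), -0.36 ± 0.12 (adjusted p = 0.0278) and -0.67 ± 0.10 (adjusted p = 0.000567), all called. The highest values were POLR1C (-0.05), BOP1 (-0.19) and UBTF (-0.56) in PC9, where UBTF was called lower, UBTF (0.08), RRP12 (0.03) and RRN3 (0.02) in HCC827 and BOP1 (-0.02), RRN3 (-0.09) and WDR75 (-0.12) in HCC2935, none of the rest called. BOP1 did not pass in PC9 either, at -0.19 ± 0.09 (adjusted p = 0.0843). By the joint test, 37 of 41 genes changed by different amounts in the lines, against 61.6% of all genes, and PC9 had the lowest value for 37. The count fell to 24 without replicate 3 of all groups. The lowest adjusted p values were 1.83e-06 for POLR1E and 3.30e-06 for WDR12.

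Set directly against acute cells, 26 of the 41 genes were higher in DTPs of H1975 and 5 in HCC827, and genes of PC9 and HCC2935 were called in both directions. The comparison asks how cells after 21 days of drug differ from cells after 24 h, and it uses the same acute and DTP libraries as the comparisons with DMSO. In H1975, 26 of 41 genes were higher and none lower by edgeR, with none lower at an unadjusted p under 0.05 or by DESeq2, and the median was 0.55. In PC9, 12 were higher and 5 lower, in HCC2935 11 and 3, and in HCC827 5 and 0, where 3 were lower at an unadjusted p under 0.05 and 2 by DESeq2. Of all genes tested, 19.2% were higher and 20.6% lower in PC9, 15.7% and 13.8% in HCC827, 11.2% and 14.9% in H1975, and 22% and 20.4% in HCC2935. As shares of the 41 genes, 29.3% in PC9, 12.2% in HCC827, 63.4% in H1975 and 26.8% in HCC2935 were higher, so the share in HCC827 was below that of all genes and that in HCC2935 near it. The shares called lower, 12.2% in PC9 and 7.32% in HCC2935, were below those of all genes. In PC9 the median of all genes moved from 0.01 to 0.15 with libraries scaled by their total alone, where 24 members were higher and 4 lower. In H1975 the count fell to 9 without acute replicate 2, to 14 without acute replicate 3 and to 15 without DTP replicate 2. Beside this, 7 of the 8 epithelial markers and 2 of the other-cell markers were lower in H1975 DTPs than in acute cells, and their part in the result was not tested. In HCC2935 the count of 14 was 9 without acute replicate 3 or DTP replicate 2, and in HCC827 the count of 5 was 0 without acute replicate 1, acute replicate 3 or DTP replicate 2, 1 without acute replicate 2 or DTP replicate 3, and 10 without DTP replicate 1. Calls among all genes of HCC827 went from 4156 to 2328, 2576, 3163, 2442, 2821 and 5237 in the same order.

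LYAR alone was higher in DTPs of all 4 lines, with 0.78 ± 0.14 (adjusted p = 0.00235) in PC9, 0.46 ± 0.15 (adjusted p = 0.0488) in HCC827, 0.65 ± 0.19 (adjusted p = 0.0340) in H1975 and 0.61 ± 0.20 (adjusted p = 0.0345) in HCC2935. In PC9 it read 5.89, 5.05 and 6.24 CPM in acute cells and 9.65, 9.32 and 10.4 CPM in DTPs, both below every DMSO library. The largest differences in H1975 were those of DDX10, a small subunit helicase, at 1.06 ± 0.15 (adjusted p = 0.00247), NOP56 at 1.06 ± 0.21 (adjusted p = 0.00777) and POLR1E at 0.99 ± 0.12 (adjusted p = 0.00132). NOP56 there went from 241, 153 and 138 CPM in acute cells to 332, 431 and 361 CPM in DTPs. POLR1A and POLR1B also rose in H1975, by 0.81 ± 0.12 (adjusted p = 0.00302) and 0.82 ± 0.17 (adjusted p = 0.00915), and in HCC2935, by 0.67 ± 0.11 (adjusted p = 0.000649) and 0.57 ± 0.11 (adjusted p = 0.00270). At the other end in H1975 stood BOP1 (-0.08), RRS1 (0.03) and PA2G4 (0.06), none of them called. FBL and PES1 were called in opposite directions in different lines. FBL read 52.8, 51.5 and 47.5 CPM in acute cells and 66.1, 79.5 and 67.0 CPM in DTPs of H1975, 0.47 ± 0.11 (adjusted p = 0.0185). In HCC2935 it read 54.4, 54.1 and 55.5 CPM in acute cells and 30.6, 34.0 and 32.1 CPM in DTPs, -0.76 ± 0.10 (adjusted p = 0.000236). The groups did not overlap in either line. It was also lower in PC9 (-0.58 ± 0.08, adjusted p = 0.000749) and gave 0.08 ± 0.14 (adjusted p = 0.708) in HCC827. PES1 gave 0.39 ± 0.12 (adjusted p = 0.0452) in H1975, -0.32 ± 0.06 (adjusted p = 0.00361) in PC9 and -0.34 ± 0.10 (adjusted p = 0.0233) in HCC2935. NPM1 was the lowest gene in PC9, at -0.64 ± 0.06 (adjusted p = 8.30e-05), from 1688, 1858 and 1842 CPM in acute cells to 1176, 1106 and 1150 CPM in DTPs. NHP2 and PA2G4 were lower in PC9 too, and POLR1C in HCC2935, at -0.88 ± 0.23 (adjusted p = 0.0107). In HCC827 the 5 higher genes were LYAR, NOP56 (0.43 ± 0.13, adjusted p = 0.0387), UTP20 (0.41 ± 0.13, adjusted p = 0.0440), RRP1B and TSR1. The lowest values there were POLR1C (-0.87), DKC1 (-0.29) and UTP4 (-0.28), none of them called.

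In PC9 the highest genes after LYAR were DDX21 at 0.53 ± 0.11 (adjusted p = 0.00446) and NOP56 at 0.49 ± 0.11 (adjusted p = 0.00788), and in HCC2935 UTP15 at 0.87 ± 0.17 (adjusted p = 0.00203) and POLR1A and NOP14, the last at 0.64 ± 0.15 (adjusted p = 0.00578). Of the remaining leading genes, DKC1 was higher in PC9 (0.23 ± 0.07, adjusted p = 0.0381) and H1975 (0.58 ± 0.13, adjusted p = 0.0146), NCL in H1975 (0.54 ± 0.12, adjusted p = 0.0151), and NOP2 in H1975 (0.66 ± 0.15, adjusted p = 0.0158) and HCC2935 (0.46 ± 0.11, adjusted p = 0.00585). RRN3 passed in HCC2935, at 0.28 ± 0.09 (adjusted p = 0.0351), and UBTF and WDR12 passed in no line, with WDR12 at 0.37 in H1975. A joint test of the lines, added after the data had been seen, called a difference for 28 of the 41 genes, against 52.4% of all genes. Its adjusted p was 3.64e-06 for POLR1E, 6.17e-06 for FBL and 0.000113 for NPM1, while LYAR did not differ detectably (0.595).

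**Figure D3:**
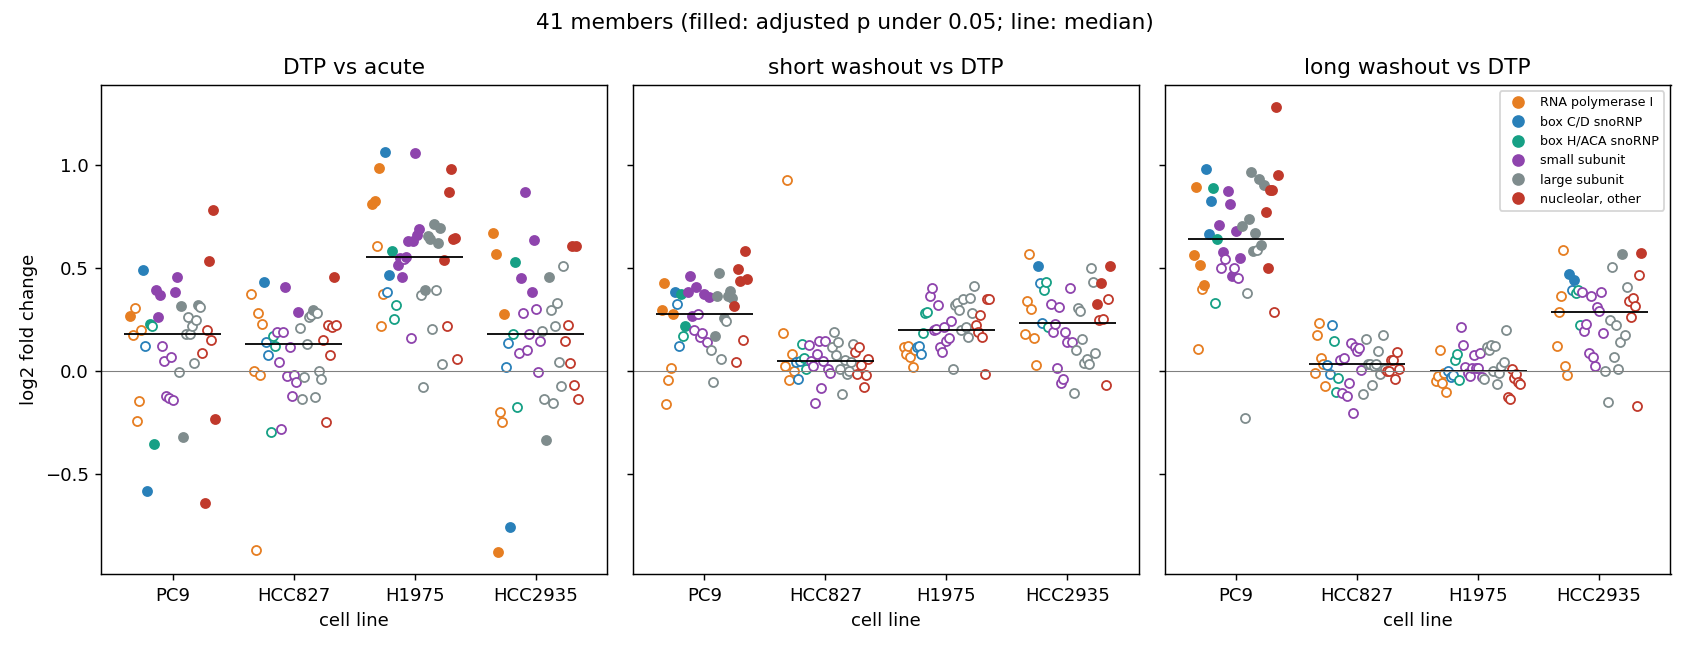
Log2 fold changes of the 41 genes in DTPs against acute cells and in both washouts against DTPs, by line, coloured by role, filled where the adjusted p was under 0.05 and with the median as a line. Filled points lie above 0 in H1975 in the first panel and in PC9 in the other panels. In these fits, which used no replicate block, HCC827 and H1975 have no filled point after washout.

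After 24 h without drug part of the group was above DTPs in PC9 and 4 genes were in HCC2935, in fits without a replicate block. With the replicate number as a block, part of the group was higher in H1975 too, and fewer genes were called in PC9 and HCC2935. Compared with DTPs, short washout cells of PC9 had 24 of 41 genes higher and none lower by edgeR, with none lower at an unadjusted p under 0.05 or by DESeq2. The median log2 fold change was 0.28, and 12.1% of all genes were higher and 10.1% lower. LYAR rose from 9.65, 9.32 and 10.4 CPM in DTPs to 12.97, 16.4 and 14.6 CPM, 0.58 ± 0.12 (adjusted p = 0.00954), followed by NOLC1 at 0.50 ± 0.07 (adjusted p = 0.00214) and NOP16 at 0.48 ± 0.08 (adjusted p = 0.00562). POLR1B rose from 30.9, 28.9 and 32.2 to 43.3, 42.0 and 38.6 CPM, 0.43 ± 0.08 (adjusted p = 0.00604), without overlap. Also called were POLR1A (0.29 ± 0.06, adjusted p = 0.0125), RRN3 (0.27 ± 0.07, adjusted p = 0.0219), NOP56 (0.38 ± 0.10, adjusted p = 0.0283), DKC1 (0.37 ± 0.09, adjusted p = 0.0207), NCL (0.32 ± 0.06, adjusted p = 0.00923), UTP20 (0.41 ± 0.08, adjusted p = 0.00850), PES1 (0.17 ± 0.05, adjusted p = 0.0430) and NOP2 (0.36 ± 0.09, adjusted p = 0.0254). FBL, NPM1, UBTF and WDR12 were not, at 0.12, 0.04, 0.01 and 0.10. The lowest values belonged to POLR1C (-0.16), BOP1 (-0.06) and POLR1E (-0.04). The count of 24 was 13 without DTP replicate 2 or DTP replicate 3 and 12 without short washout replicate 2, and it was 2 in a fit of all 15 PC9 libraries. Calls among all genes fell from 3221 to 2081, 2210, 1785 and 880 in the same order.

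In HCC2935, 4 genes were higher and none lower by edgeR, against 2.47% and 1.04% of all genes, while 19 were higher and none lower at an unadjusted p under 0.05 and DESeq2 called 9 higher and none lower. The 4 genes were NOP56 (0.51 ± 0.10, adjusted p = 0.0325), PA2G4 (0.51 ± 0.08, adjusted p = 0.0147), NOLC1 (0.43 ± 0.08, adjusted p = 0.0272) and NCL (0.33 ± 0.07, adjusted p = 0.0386). NCL read 428, 428 and 458 CPM in DTPs and 556, 551 and 533 CPM after the short washout. The groups did not overlap. Without single libraries the count was 0 (short washout replicate 1 or 2), 1 (short washout replicate 3 or DTP replicate 2) or 2 (DTP replicate 3). In HCC827 and H1975 edgeR called no gene, and neither did it among all genes, at 0% in both directions. At an unadjusted p under 0.05, 1 of the 41 was higher in HCC827 and 13 in H1975, none lower, and DESeq2 and limma called none. The medians were 0.05 and 0.20, and 40 of the 41 genes had a positive value in H1975. Same-numbered replicates of the H1975 arms varied together, and with the replicate number as a block 12 of the 41 genes were higher there and none lower, against 6.7% of all genes higher and 4.87% lower in the same fit. They included RRP12, at 0.41 with an adjusted p of 0.00973 in that fit, and PES1, at 0.33 with 0.00623. PES1 read 244, 277 and 233 CPM in DTPs and 307, 350.1 and 282 CPM after the washout in H1975. The groups did not overlap. Without the block, the highest values in H1975 were RRS1 (0.41), RRP12 (0.40) and RRP9 (0.37) and the lowest GNL3 (-0.01), WDR12 (0.01) and UBTF (0.02), and in HCC827 they were POLR1C (0.93), BOP1 (0.19) and POLR1A (0.19) and UTP15 (-0.15), RRP1 (-0.11) and WDR75 (-0.08). In HCC2935 the lowest were WDR12 (-0.11), GNL3 (-0.07) and WDR43 (-0.06), and POLR1C had the highest value, 0.57 ± 0.31 (adjusted p = 0.341). Between the lines no gene differed by a joint test added after the data were seen (0 of 41 by edgeR, 2 at an unadjusted p under 0.05, and 0 with library size scaling), against 0.0248% of all genes. The joint test used no replicate block, although same-numbered replicates of H1975 and HCC827 varied together in this comparison.

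After the long washout, 30 of the 41 genes were above DTPs in PC9, 4 in HCC2935 and none in HCC827 or H1975. None was lower in any line by edgeR or DESeq2 or at an unadjusted p under 0.05, and in HCC827 and H1975 none was higher by these measures either. Of all genes, 11.8% were higher and 5.47% lower in PC9, and 2.99% and 2.17% in HCC2935. In HCC827 the shares were 0% in both directions, and in H1975 0% were higher and 0.0136% lower. LYAR read 9.65, 9.32 and 10.4 CPM in PC9 DTPs and 23.2, 30.4 and 15.9 CPM after the long washout, 1.28 ± 0.22 (adjusted p = 0.0277). NOP56 read 129, 113 and 99.2 CPM in DTPs and 245, 265 and 148 CPM after the washout, 0.98 ± 0.21 (adjusted p = 0.0305). POLR1B read 30.9, 28.9 and 32.2 CPM in DTPs and 51.3, 65.6 and 49.7 CPM after the washout, 0.89 ± 0.13 (adjusted p = 0.0262). The groups did not overlap for any of the 3 genes. Long washout replicate 3 was the lowest of its group for each of these genes. Over the whole group, the summed level was 6464, 7201 and 4744 CPM in the 3 long washout libraries and 4257, 3981 and 4027 CPM in DTPs. Without that replicate LYAR gave 1.49 (adjusted p = 0.000191), NOP56 1.20 (adjusted p = 0.000184) and POLR1B 0.97 (adjusted p = 0.000489). Without that replicate 38 members were called, where the fit called 6815 of all genes in place of 2496, and without any other single library of the comparison 0 or 1, namely 1 without long washout replicate 2, where 98 of all genes were called, and 0 without long washout replicate 1 or any DTP replicate, where edgeR called no gene at all. Further calls in PC9 were NOP16 (0.97 ± 0.23, adjusted p = 0.0345), FBL (0.83 ± 0.21, adjusted p = 0.0408), DKC1 (0.89 ± 0.16, adjusted p = 0.0277), UTP20 (0.88 ± 0.18, adjusted p = 0.0299), NCL (0.77 ± 0.15, adjusted p = 0.0285), NOP2 (0.74 ± 0.17, adjusted p = 0.0345), WDR12 (0.71 ± 0.19, adjusted p = 0.0418), POLR1A (0.56 ± 0.14, adjusted p = 0.0391), NPM1 (0.50 ± 0.14, adjusted p = 0.0475) and RRN3 (0.42 ± 0.11, adjusted p = 0.0458). PES1 and UBTF were not called, at 0.38 ± 0.12 (adjusted p = 0.0629) and 0.40 ± 0.12 (adjusted p = 0.0530), and BOP1 had the lowest value, -0.23 ± 0.13 (adjusted p = 0.211). Without long washout replicate 3 PES1 and UBTF passed, at 0.50 (adjusted p = 0.000978) and 0.50 (adjusted p = 0.00199). BOP1 did not pass without it either, at -0.13 (adjusted p = 0.329).

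In HCC2935 the 4 higher genes were NOP56 (0.47 ± 0.11, adjusted p = 0.0434), FBL (0.44 ± 0.11, adjusted p = 0.0474), MRTO4 (0.57 ± 0.14, adjusted p = 0.0466) and PA2G4 (0.57 ± 0.13, adjusted p = 0.0433), with 18 higher at an unadjusted p under 0.05 and 8 by DESeq2. MRTO4, an assembly factor of the large subunit, read 15.96, 15.5 and 16.5 CPM in DTPs and 20.9, 26.2 and 23.7 CPM after the long washout. The count of 4 was 10 without long washout replicate 1 and 0 without any other single library of the 6. In H1975 the values centred on 0, with a median of -0.0021, a highest value of 0.21 for RRP9 and a lowest of -0.14 for NPM1. In HCC827 they ran from -0.20 for WDR75 to 0.24 for POLR1C. Lines differed for 17 of 41 genes by a joint test added after the data were seen, against 7.34% of all genes, for 33 without PC9 long washout replicate 3 and for 11 with library size scaling. The lowest adjusted p values were 0.0197 for NCL, 0.0218 for LYAR and 0.0226 for PA2G4. The 12 proliferation genes, among them MKI67 and TOP2A, were all higher than in DTPs in PC9 and 11 of 12 in HCC2935, and none in HCC827 or H1975 by edgeR or at an unadjusted p under 0.05. In PC9 none of the 12 was called without long washout replicate 1 or any DTP replicate, since edgeR then called no gene at all. Their summed level in H1975 was 27.6% of DMSO after the long washout, beside 32.8% in DTPs and 55.2% after the short washout. In HCC827 it was 36.4%, beside 36.9% in DTPs and 43.9% after the short washout. The median of the 12 genes in H1975 was -0.27 and in HCC827 -0.05. The return to exponential growth named by the protocol was not measured in the data used here. The part of proliferation in the values of the nucleolar genes was not tested.

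Against DMSO, the long washout libraries were still lower for part of the group in every line. Of the 41 genes, 36 in PC9, 22 in HCC827, 29 in H1975 and 20 in HCC2935 were lower, and none was higher by edgeR, DESeq2 or limma or at an unadjusted p under 0.05. Of all genes, 14.7% in PC9, 19.9% in HCC827, 28.2% in H1975 and 18.9% in HCC2935 were lower, and 15.9% in PC9, 19.7% in HCC827, 26.8% in H1975 and 21% in HCC2935 were higher. The comparison shares its DMSO libraries with the comparisons above. The medians were -0.61 in PC9, -0.48 in HCC827, -0.42 in H1975 and -0.38 in HCC2935, and the summed level was 62.1% in PC9, 67.5% in HCC827, 71.1% in H1975 and 76.0% in HCC2935 of the DMSO mean. Without long washout replicate 3, PC9 had 33 of 41 genes lower and a summed level of 69.2% of DMSO, with LYAR at -0.93 (adjusted p = 0.00191), WDR43 at -0.84 (adjusted p = 0.000344) and POLR1B at -0.93 (adjusted p = 0.00133). Lower in all 4 lines were DKC1, FBL, MRTO4, NIP7, NOLC1, NOP16, PA2G4, PES1, RRS1, UTP4 and WDR43. FBL read 83.0, 83.0 and 75.0 CPM under DMSO and 41.7, 44.2 and 44.8 CPM after the long washout in HCC2935, -0.85 ± 0.10 (adjusted p = 0.00017). DKC1 read 312, 477 and 323 CPM under DMSO and 177, 144 and 212 CPM after the washout in HCC827, -1.06 ± 0.19 (adjusted p = 0.00220), which was the lowest value of that line. Neither gene had overlapping groups. In H1975 RRS1 (-1.73 ± 0.10, adjusted p = 1.50e-05), PA2G4 (-1.67 ± 0.12, adjusted p = 2.75e-05) and LYAR (-1.21 ± 0.09, adjusted p = 2.99e-05) were again the lowest, and in PC9 LYAR (-1.14 ± 0.21, adjusted p = 0.00867), WDR43 (-1.02 ± 0.18, adjusted p = 0.00652) and POLR1B (-0.99 ± 0.13, adjusted p = 0.00321). In HCC2935 the lowest were PA2G4 (-0.90 ± 0.13, adjusted p = 0.000659), FBL and NOP56 (-0.74 ± 0.12, adjusted p = 0.000996). The polymerase genes POLR1A, RRN3, POLR1E and POLR1B were called lower in PC9, POLR1B in HCC827 and RRN3 in H1975, while UBTF and POLR1C were called in no line. POLR1A gave -0.44 ± 0.14 (adjusted p = 0.0484) in PC9 and -0.09 ± 0.10 (adjusted p = 0.457) in H1975, and UBTF -0.15 ± 0.12 (adjusted p = 0.365) and -0.15 ± 0.07 (adjusted p = 0.105). Without long washout replicate 3 POLR1A was not called in PC9, at -0.31 (adjusted p = 0.0515).

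NCL gave -0.71 ± 0.16 (adjusted p = 0.0149) in PC9, -0.70 ± 0.12 (adjusted p = 0.00209) in HCC827, -0.87 ± 0.06 (adjusted p = 2.52e-05) in H1975 and -0.31 ± 0.11 (adjusted p = 0.0507) in HCC2935. NPM1 gave -0.69 ± 0.14 (adjusted p = 0.0104), -0.69 ± 0.10 (adjusted p = 0.000747), -0.72 ± 0.07 (adjusted p = 0.000105) and -0.15 ± 0.10 (adjusted p = 0.297) in the same order. Both were called in 3 lines and not in HCC2935. PES1 gave -0.61 ± 0.13 (adjusted p = 0.0118) in PC9, -0.48 ± 0.13 (adjusted p = 0.0145) in HCC827, -0.30 ± 0.11 (adjusted p = 0.0496) in H1975 and -0.38 ± 0.13 (adjusted p = 0.0376) in HCC2935. NOP2 was called in PC9 (-0.61) and H1975 (-0.52), WDR12 also in HCC827 (-0.38), and UTP20 in PC9 (-0.74), H1975 (-0.60) and HCC2935 (-0.66). The highest values were POLR1C (0.07), UBTF (-0.15) and NHP2 (-0.34) in PC9, UBTF (0.10), POLR1E (-0.0030) and BYSL (-0.01) in HCC827, POLR1E (0.16), DDX10 (0.05) and GNL3 (0.04) in H1975 and NOP14 (0.15), GAR1 (0.09) and POLR1B (-0.04) in HCC2935. In PC9 the count of 36 was 12, 23 and 6 without DMSO replicates 1, 2 and 3 and 16 without long washout replicate 1. Calls among all genes of PC9 fell from 4278 to 1935, 2338, 1364 and 2348 in the same order. In HCC827 the count of 22 was 11 without long washout replicate 1 and 10 without long washout replicate 2, and in HCC2935 the count of 20 was 13 without DMSO replicate 1. In the joint test of the lines, 10 of 41 genes differed, against 52.4% of all genes, and 14 without PC9 long washout replicate 3. Without replicates 1, 2 and 3 of all groups the count was 0, 22 and 6, while 3956, 7059 and 6093 of all genes were called in place of 8398. GNL3, a nucleolar GTPase, gave -0.73 in HCC2935 and 0.04 in H1975 (adjusted p of the difference between lines = 0.00157), and RRS1 differed with 0.00239.

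**Figure D4:**
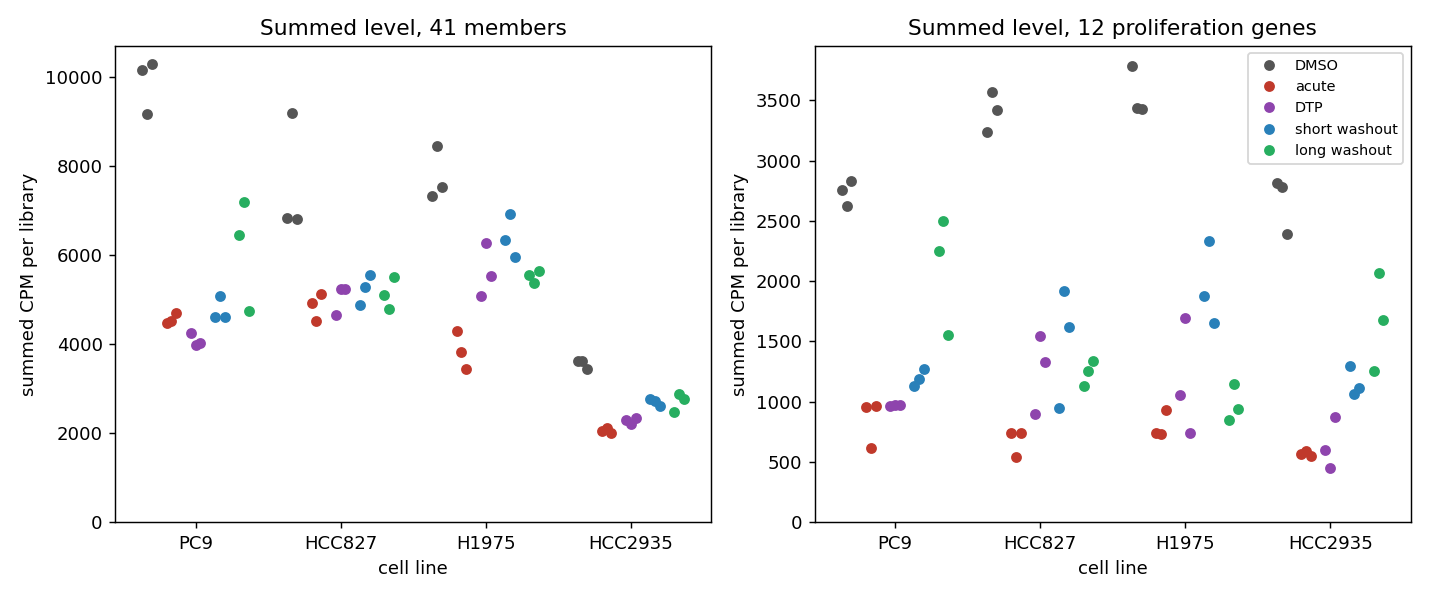
Summed CPM of the 41 genes (left) and of 12 proliferation genes (right) in every library, by line and arm, with axes from 0. In each line the DMSO libraries hold the highest sums of the 41 genes, and the 3 long washout libraries of PC9 are spread widely.

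A further 106 genes of ribosome biogenesis that are not in the group, all of them tested, were mostly lower after acute treatment as well. The test gave 95 lower and 1 higher in PC9, 69 lower and 4 higher in HCC827, 95 lower and 1 higher in H1975 and 71 lower and 2 higher in HCC2935. TCOF1, the treacle protein of rDNA transcription, was the lowest in PC9 (-2.72), HCC827 (-2.25) and H1975 (-1.96). In HCC2935 the lowest was CD3EAP, a further polymerase I subunit, at -1.82. TAF1C, a subunit of the promoter selectivity factor, was the highest in HCC827 (0.45), H1975 (0.24) and HCC2935 (0.95), and ZNHIT3, an assembly factor of box C/D snoRNPs, in PC9 (0.47). Their medians were -0.96 in PC9, -0.50 in HCC827, -0.81 in H1975 and -0.55 in HCC2935. Of all genes tested, 34.1% in PC9, 22.1% in HCC827, 23.7% in H1975 and 25.1% in HCC2935 were lower after acute treatment. Split by function, the 10 other polymerase I genes had 7 in PC9, 5 in HCC827, 5 in H1975 and 5 in HCC2935 lower, the 34 small subunit factors 31 in PC9, 22 in HCC827, 32 in H1975 and 25 in HCC2935, and the 40 large subunit factors 39 in PC9, 28 in HCC827, 38 in H1975 and 25 in HCC2935. The 9 snoRNP factors had 8 in PC9, 6 in HCC827, 8 in H1975 and 7 in HCC2935 lower, and the 13 genes of the RNA exosome and its partners 10 in PC9, 8 in HCC827, 12 in H1975 and 9 in HCC2935. In DTPs of PC9 102 of the 106 were lower than under DMSO, with 33 in HCC827, 61 in H1975 and 75 in HCC2935. The shares of all genes called lower there were 35.9% in PC9, 17.2% in HCC827, 23.4% in H1975 and 27.2% in HCC2935.

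RNA polymerase III, which makes the smallest ribosomal RNA and the transfer RNAs, was followed through 20 genes. After acute treatment they were 14 lower and 2 higher in PC9, 5 lower and 0 higher in HCC827, 13 lower and 1 higher in H1975 and 7 lower and 3 higher in HCC2935. The shares of all genes called lower were 34.1% in PC9, 22.1% in HCC827, 23.7% in H1975 and 25.1% in HCC2935, and the 5 of 20 in HCC827 were near that share. POLR3G, the subunit found mainly in stem and tumour cells, had the lowest value in PC9 (-3.13), HCC827 (-1.69) and H1975 (-1.71), and POLR3K in HCC2935 (-1.66). POLR3GL, the paralogue of POLR3G, was the highest in PC9, at 0.69, and MAF1, a repressor of the polymerase, in H1975 (0.33) and HCC2935 (0.55). In the same comparison, 10 genes of ERK feedback such as DUSP6 and SPRY4 had 10 of 10 lower in PC9, 9 in HCC827, 9 in H1975 and 10 in HCC2935. All 12 proliferation genes were lower in each line, with medians of -1.79 in PC9, -2.40 in HCC827, -2.23 in H1975 and -2.04 in HCC2935. In DTPs all 12 were lower than under DMSO too, in H1975 with a median of -1.69 beside -0.48 for the 41 nucleolar genes. In H1975 DTPs set against acute cells, edgeR called none of the 12 in either direction and 4 passed at an unadjusted p under 0.05, with a median of 0.46, beside 26 of the 41 nucleolar genes higher. In HCC827 the same comparison had 11 of 12 proliferation genes higher, beside 5 of the 41. Whether these lists and the 41 genes moved for a common reason was not tested.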

How the data were processed

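RNA-seq libraries from 20 groups (4 cell lines, 5 arms, 3 biological replicates) were analysed from 2 deposited tables of 19712 genes. Per the labels and the submitters' processing notes, which name hg38, HISAT2 2.1.0 and Salmon 0.8.2, the authors deposited estimated counts per gene, and log2 TPM values to which the authors had added 0.01 before taking logs. The annotation used for counting, and whether it used strand, is not given in the sources used here. Every column of both tables was matched to a sample by its title (0 left over).

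Estimated counts were rounded to whole numbers, scaled by TMM, filtered by filterByExpr and tested with the quasi-likelihood F-test of edgeR 4.0.16 (R 4.3.3) over all genes, using the 6 libraries of each comparison, with Benjamini-Hochberg adjustment and a threshold of 0.05. The SE is the log2 fold change divided by the square root of F. CPM uses TMM-scaled library sizes. Levels between genes were compared on TPM. Differences between lines were tested jointly on the 3 line-by-arm terms over 24 libraries. Alternatives used DESeq2 1.42.0, limma 3.58.1 on log2 TPM, RLE or library size scaling, other filters, a threshold of 0.01, a replicate block, all 15 libraries of a line, and the removal of each library in turn. The code was tested on simulated data. Biological replicates are named as such in the labels, without saying how the cultures were separated.

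Same-numbered samples deviated together (r over 0.1 in all 3 pairs) in short washout against DTPs of H1975 (0.23 to 0.56) and HCC827 (0.37 to 0.66) and in acute against DMSO of HCC2935 (0.10 to 0.32), and not in the other comparisons.

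The 41 genes and all lists were chosen with earlier results of these data known. The lists are 106 further biogenesis genes, 20 genes of RNA polymerase III, 12 of proliferation, 10 of ERK feedback, 8 epithelial markers and 10 markers of other cells, of which 1 is not reported here by itself. All members could be named. Statistics are given for 13 leading genes (POLR1A, POLR1B, UBTF, RRN3, NOP56, FBL, DKC1, NCL, NPM1, UTP20, PES1, NOP2 and WDR12) and for the 3 highest and 3 lowest values of a comparison, and in comparisons with few or no calls the leading genes are given by counts and ranges. Loci are those of GENCODE release 29, and promoters those of RefSeq (GRCh38.p14).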

Additional observations from a re-analysis of the deposited data

Results flagged for a closer look

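The change of a gene differed between the cell lines, by edgeR's joint test of the line-by-arm terms at an adjusted p under 0.05, for 30 of the 41 genes in acute cells against DMSO, for 37 in DTPs against DMSO and for 10 in long washout cells against DMSO. Of all genes tested, 40.5%, 61.6% and 52.4% differed in the same order, so the share in long washout cells against DMSO was below that of all genes. In tests added after the data had been seen, the change differed for 28 genes in DTPs against acute cells, against 52.4% of all genes. It differed for 17 in long washout cells against DTPs, against 7.34% of all genes. In all 5 comparisons the lines differ in genotype, in depth and, for the long washout, in the length of the arm, and these cannot be told apart.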

How the results depend on the processing

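Of 6165 recomputed values of single genes, no called value changed sign, 5465 kept their side of it, 414 lost the call, 74 gained it and 212 uncalled values changed sign. Of 251 recomputed counts, leaving out the removal of single libraries, 220 stayed within 1.5 times the count reported. The others are as follows, as counts of called members. At an adjusted p under 0.01, PC9 had 8 of 17 (DTPs against acute), 11 of 24 (short washout against DTPs), 0 of 30 (long washout against DTPs) and 5 of 36 (long washout against DMSO). Among all genes, PC9 calls fell from 5760 to 3467, 3221 to 1241, 2496 to 0 and 4278 to 1310 in the same order. HCC827 had 22 of 34 (acute), 10 of 17 (DTPs against DMSO), 0 of 5 (DTPs against acute) and 9 of 22 (long washout against DMSO), and H1975 had 8 of 26 (DTPs against acute). All-gene calls in the first 3 comparisons of HCC827 fell from 5817 to 3564, 5104 to 2828 and 4156 to 1771. HCC2935 had 7 of 14 (DTPs against acute), 0 of 4 in each washout against DTPs and 12 of 20 (long washout against DMSO), and the lines differed for 3 of 10 genes (long washout against DMSO). For DTPs against acute cells, PC9 gave 28 with library size scaling (24 higher, 4 lower) and 30 with limma (28 and 2), HCC2935 22 with limma (20 and 2), and HCC827, in place of 5, 2 without a filter, 1 with limma, 2 with the replicate block and 1 with all 15 libraries. For the short washout, PC9 gave 2 with all 15 libraries in place of 24, HCC2935 9 with DESeq2 and 1 with the replicate block in place of 4, and H1975 12 with the block in place of 0. For the long washout of HCC2935 against DTPs, 4 became 8 with DESeq2, 2 with limma, 0 with the block and 12 with all 15 libraries. Lines differed for 6 genes in place of 10 with the block (long washout against DMSO) and for 11 in place of 17 with library size scaling (long washout against DTPs). The replicate block moved no other count by over 1.5 times. The cause was not tested.

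Leaving out 1 library at a time gave 12 to 23 in PC9 short washout against DTPs, 0 to 38 in long washout against DTPs and 6 to 39 in long washout against DMSO. HCC827 gave 0 to 10 in DTPs against acute cells and 10 to 23 in long washout against DMSO, and H1975 9 to 29 in DTPs against acute cells. HCC2935 gave 9 to 11 in DTPs against acute cells, 0 to 3 in short washout against DTPs, 0 to 10 in long washout against DTPs and 13 to 20 in long washout against DMSO. For differences between lines, leaving out 1 replicate number of all groups gave 12 to 29 (acute), 24 to 38 (DTPs) and 0 to 22 (long washout, against DMSO), and leaving out PC9 long washout replicate 3 gave 14 (long washout against DMSO) and 33 (against DTPs). The ranges were 40 to 40 for the acute count of PC9, 24 to 33 for HCC827, 39 to 41 for H1975 and 34 to 36 for HCC2935.

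Scaling moved all genes in some comparisons. In PC9 the median of all genes rose from 0.02 to 0.29 in DTPs against DMSO with limma on TPM, and the share of calls that were higher from 49.7% to 65.3%. In PC9 DTPs against acute cells that share went from 48.3% to 69.1% with library size scaling and 82.8% with limma, and in long washout against DTPs from 68.4% to 56.3% with DESeq2. Against DMSO, the PC9 long washout went from 51.9% to 67.4% with library size scaling and 69.1% with limma, and HCC827 acute cells from 47.8% to 57.9% with library size scaling. With limma, HCC2935 DTPs went from 48.2% to 62.3% against DMSO and from 51.8% to 69.7% against acute cells. The shallowest library held 17.7 M counts, which limits genes with few reads. POLR1C gave -0.87 in HCC827 DTPs against acute cells and was not called.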
